A study of Mus musculus with 24 samples.

Results

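Fgf21, Gdf15, Adm2 and Stc2 encode secreted hormones or growth factors that cells release under stress. They were followed as a set of 4 genes chosen by name, with earlier results of these data known. Each was followed through the array probe whose accession belongs to it, out of 20170 named genes on the arrays and 14459 that were tested. Each gene had a single probe, and all 4 passed the filter for testing, which asked for a signal well above background on all arrays of some group. RNA came from mouse embryonic fibroblasts (MEFs), fibroblast cultures grown from embryos, in medium with serum, 2-mercaptoethanol and non-essential amino acids.

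The 10 groups held 24 arrays. Perk-null cells (labelled PERKKO), Atf4-null cells (labelled ATF4KO) and eIF2a A/A cells, whose eIF2a carries alanine in place of the serine that kinases phosphorylate, were treated with tunicamycin or left untreated, with 2 arrays in each of these 6 groups. Tg(Fv2E-PERK) cells, which carry a PERK kinase domain fused to an inducible dimerization domain, received AP or nothing, with 2 arrays each. Wild-type cells were treated with tunicamycin or left untreated, with 4 arrays each. Treatments lasted 12 h by the sample labels, tunicamycin was given at 2 µg per mL, and the labels give no dose for AP and do not spell it out. The shared protocol names 12 or 24 h, and a 24 h mock treatment appears in the file name of the second untreated Perk-null array. The labels give neither the number of clones behind a genotype nor the host genotype of the Fv2E-PERK cells, and they do not say that replicates were separate cultures, so a p-value may rest on technical spread between arrays alone.

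Tunicamycin blocks N-glycosylation, and misfolded proteins then gather in the endoplasmic reticulum (ER). PERK, a kinase of the ER membrane, answers by phosphorylating eIF2a, which lowers protein synthesis in general while the transcription factor ATF4 is translated more. This route from eIF2a phosphorylation to ATF4 is known as the integrated stress response. FGF21 acts on distant tissues through FGF receptors with the co-receptor beta-Klotho, GDF15 acts on the hindbrain through GFRAL with RET, adrenomedullin 2 (the product of Adm2) acts through CALCRL with RAMP proteins, and stanniocalcin 2 (the product of Stc2) binds and inhibits the protease PAPP-A, which frees insulin-like growth factors from their binding proteins.

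The promoters of the 4 genes are shown because the genes are compared for their dependence on the PERK, eIF2a and ATF4 route, and ATF4 with C/EBP partners binds a composite element often written TTGCATCA. Each line holds the 250 bases before an annotated start, from RefSeq (build GRCm38.p6), 5′ to 3′ in the direction of transcription. The table held 5 such promoters for the 4 genes, since Gdf15 has 2 starts. Capitals mark matches on either strand to the composite element, to TGACG (the core of the cAMP response element) and to CCACG (the end of the ER stress response element).
Fgf21, chr7:45615491-45615740, minus strand: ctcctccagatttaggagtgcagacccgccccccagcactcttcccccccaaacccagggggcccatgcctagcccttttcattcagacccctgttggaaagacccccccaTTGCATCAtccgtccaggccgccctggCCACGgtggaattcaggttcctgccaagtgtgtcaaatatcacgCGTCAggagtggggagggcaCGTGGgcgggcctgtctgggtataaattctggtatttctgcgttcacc
Gdf15, first start, chr8:70632096-70632345, minus strand: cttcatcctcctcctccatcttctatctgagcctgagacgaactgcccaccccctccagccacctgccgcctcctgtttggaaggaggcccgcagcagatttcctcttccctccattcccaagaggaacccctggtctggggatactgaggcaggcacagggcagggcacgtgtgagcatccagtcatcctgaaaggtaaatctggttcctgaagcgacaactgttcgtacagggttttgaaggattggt
Gdf15, second start, chr8:70632457-70632706, minus strand: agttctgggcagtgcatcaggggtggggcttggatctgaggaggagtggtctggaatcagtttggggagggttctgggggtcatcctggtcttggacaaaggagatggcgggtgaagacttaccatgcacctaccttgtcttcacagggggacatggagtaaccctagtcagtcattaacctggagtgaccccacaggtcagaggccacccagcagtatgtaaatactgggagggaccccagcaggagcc
Adm2, chr15:89322470-89322719, plus strand: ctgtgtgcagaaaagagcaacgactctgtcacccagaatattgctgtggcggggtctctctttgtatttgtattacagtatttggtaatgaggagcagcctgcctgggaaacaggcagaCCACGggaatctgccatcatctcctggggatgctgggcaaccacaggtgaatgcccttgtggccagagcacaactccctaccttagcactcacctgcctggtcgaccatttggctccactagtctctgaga
Stc2, chr11:31370062-31370311, minus strand: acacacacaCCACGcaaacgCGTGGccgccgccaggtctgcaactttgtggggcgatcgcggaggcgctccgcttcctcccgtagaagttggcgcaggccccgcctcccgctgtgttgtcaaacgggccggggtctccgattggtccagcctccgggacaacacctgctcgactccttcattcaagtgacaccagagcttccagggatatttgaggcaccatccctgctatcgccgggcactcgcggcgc
Of the 4 genes, Fgf21 alone held TTGCATCA within this window, 139 to 132 bases before its start, where the looser form TGATGNAA matched the same bases on the other strand. Among 32851 RefSeq promoters of the same length, TTGCATCA was present in 0.791% and TGATGNAA in 3.45%. Fgf21 also held 1 TGACG, present in 17.8% of promoters, 2 CCACG, and a TATAAA 28 to 23 bases before the start, present in 12.4%. CCACG occurred at 1 place in the Adm2 promoter and at 2 in the Stc2 promoter, against 28.3% of all promoters with at least 1. The full cAMP response element TGACGTCA (1.55% of promoters), the AP-1 element TGANTCA (6.75%) and the full ER stress response element (0.113%), which ends in CCACG, were in none of the 5 windows. Neither Gdf15 window held any of the motifs searched. A match describes letters and not binding, and elements outside the window were not searched.

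Levels are given as log2 of an array's processed signal minus that array's 75th percentile, so 0 is the signal that 75% of probes stay below. Levels of different genes come from different probes and are not set against each other. In RNA from whole cultures, fewer cells that express a gene and less RNA per cell cannot be told apart. Arrays had a 75th percentile of 111.4 to 417.7 intensity units, with 45.1% to 58.2% of their probes above background, so dim signals on the weaker arrays have few units behind them, and with 2 arrays in most groups the number of arrays limits the precision. Of 10 fibroblast markers, 9 were well above background on all 24 arrays, Lum being the exception with 5, while this held for none of 6 hepatocyte, 6 epithelial and 6 skeletal muscle markers, 1 of 6 adipocyte, 2 of 5 endothelial, 2 of 5 haematopoietic and 4 of 5 neural markers. The part of other cell types in the results was not tested. The Atf4 probe lay between -4.27 and 2.79 on the 4 Atf4-null arrays and between 6.56 and 9.14 on the other arrays. The Eif2ak3 probe for PERK lay between -0.47 and 0.28 on Perk-null arrays, against -0.05 to 1.79 on wild-type arrays, but the probe may lie outside the deleted part, and then it checks nothing. Arrays with the same year in the scan date of their file headers were taken as 1 scan run. Wild-type replicates 1 and 2 were scanned with the Atf4-null arrays (run 1), and wild-type replicates 3 and 4 with the Perk-null arrays (run 2). The data file names tie each of these wild-type pairs to the line of the mutant it was scanned with, so that the run and the origin of the cells cannot be told apart. The eIF2a A/A and Fv2E-PERK arrays were scanned in run 3. They also carried a later version of the array design than all other arrays, so run and design version cannot be told apart. In run 1, treated and untreated arrays shared no slide and no scan day. Slide, scan day and treatment thus cannot be told apart there, in wild-type as in Atf4-null cells.

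In wild-type cells all 4 hormone genes rose with tunicamycin. In limma's fit over all tested genes, 21.2% of genes were called higher and 16.3% lower in this comparison at an adjusted p under 0.05 (Benjamini-Hochberg). The test was two-sided here and throughout. Of the called genes 56.6% were higher, a share that was 46.2% after quantile normalization and 41.8% with the array median as the scale.

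**Figure D1:**
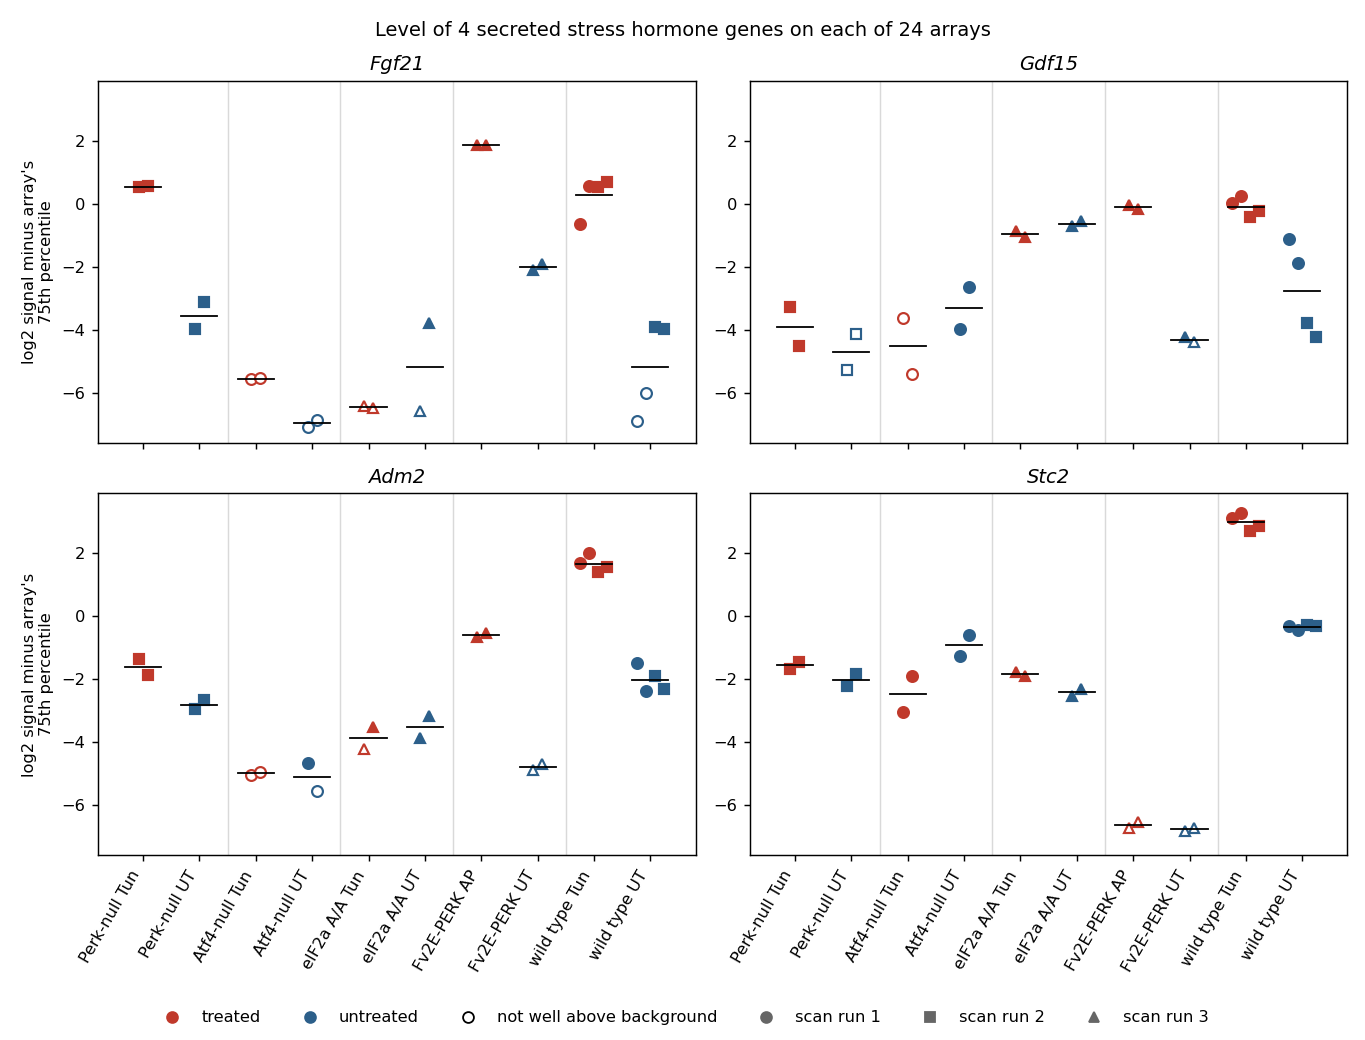
Level of each hormone gene on each of 24 arrays, as log2 signal minus the array's 75th percentile (vertical axis), by genotype and treatment (Tun, tunicamycin; UT, untreated). Points are arrays, bars are group means, open points were not well above background, and shapes give the scan run. All 4 treated wild-type arrays lie above all 4 untreated wild-type arrays for each gene, and Stc2 is not well above background on any Fv2E-PERK array.

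Fgf21, a hormone of fasting and stress that the liver is best known for, was at -0.66, 0.57, 0.54 and 0.68 on treated wild-type arrays, against -6.89, -6.01, -3.90 and -3.98 on untreated ones. The groups did not overlap, and the first of the treated arrays stood below the other 3. The response was 5.48 ± 0.49 (log2 fold change ± SE, 44.7-fold, 95% interval 21.7 to 91.9, adjusted p = 6.06e-07), a size that rests in part on untreated arrays at background. Untreated wild-type cells differed by run. Fgf21 was not well above background on the 2 untreated arrays of run 1 and was above it on both of run 2, and the response was 6.41 in run 1 and 4.55 in run 2. With a background correction that adds a constant before the log (normexp), which compresses dim signals, the response was 2.80, still past the threshold.

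Gdf15, a distant member of the TGF-beta family, was at 0.03, 0.26, -0.43 and -0.24 on treated wild-type arrays, against -1.12, -1.88, -3.80 and -4.22 on untreated ones. The treated arrays were close together, while untreated arrays of run 1 were well above those of run 2. The response was 2.66 ± 0.46 (6.32-fold, adjusted p = 3.42e-04). It was 1.64 in run 1 and 3.68 in run 2, and 1.60 with normexp. The difference of both runs' responses was 2.04 ± 0.79 in the direction of run 2 and was not called (adjusted p for Fgf21, Gdf15, Adm2 and Stc2 in this comparison all missed 0.05, where 7.91% of genes were called in either direction).

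Adm2, a peptide of the calcitonin family, was at 1.69, 1.99, 1.40 and 1.55 on treated wild-type arrays, against -1.50, -2.38, -1.89 and -2.30 on untreated ones. Its groups lay far apart in both runs. The response was 3.67 ± 0.24 (12.8-fold, adjusted p = 1.77e-08), and it was 3.78 in run 1 and 3.57 in run 2. Stc2 was at 3.12, 3.29, 2.70 and 2.87 on treated wild-type arrays, against -0.31, -0.43, -0.28 and -0.32 on untreated ones. All 4 untreated arrays lay between -0.43 and -0.28, whichever their run. The response was 3.33 ± 0.21 (10.0-fold, adjusted p = 1.12e-08), with 3.57 in run 1 and 3.08 in run 2.

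**Figure D2:**
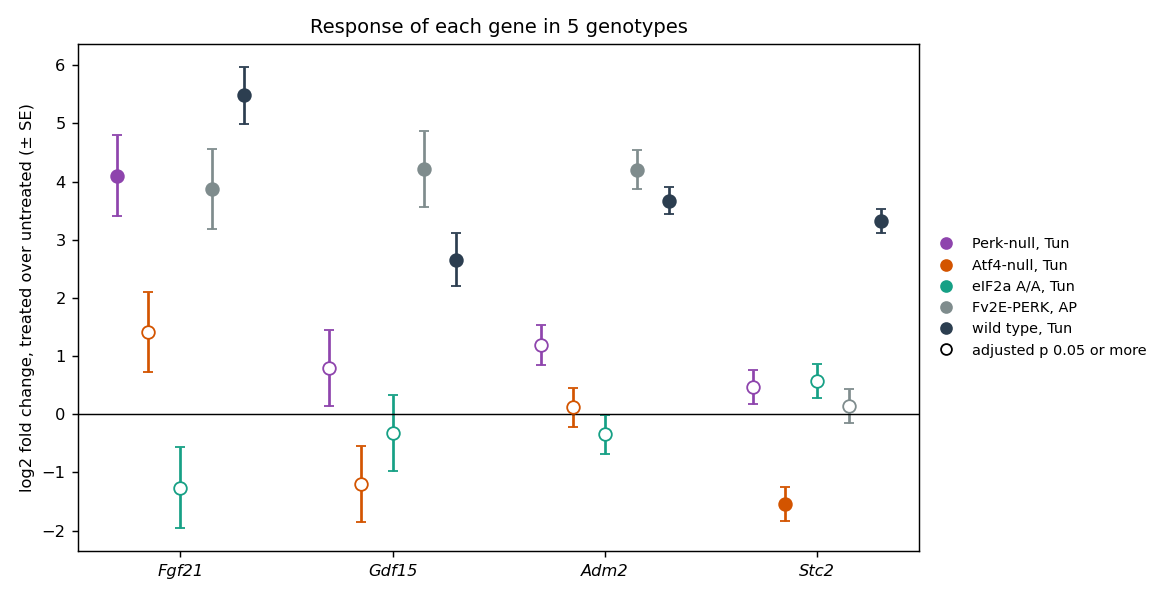
Log2 fold change of treated over untreated cells (vertical axis, bars ± SE) for each gene in 5 genotypes. Filled points passed an adjusted p under 0.05. In Perk-null cells Fgf21 is the filled point, at 4.10, and in Fv2E-PERK cells given AP the points of Fgf21, Gdf15 and Adm2 are filled and lie between 3.87 and 4.21, whereas Stc2 lies at 0.15.

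In Perk-null cells, Fgf21 still rose with tunicamycin and the other 3 hormone genes were not called. In that comparison 1.87% of tested genes were called higher. Fgf21 was at 0.53 and 0.57 on treated Perk-null arrays, against -3.98 and -3.13 on untreated ones. These values lay close to those of wild-type cells of the same run, which were 0.54 and 0.68 treated and -3.90 and -3.98 untreated. The response in Perk-null cells was 4.10 ± 0.69 (17.2-fold, 95% interval 6.19 to 47.6, adjusted p = 3.75e-03), the second highest of all tested genes in that genotype. It was 3.66 on one slide and 4.55 on the other, and 2.53 with normexp. Without untreated Perk-null replicate 1 it was 3.67 and no longer called (adjusted p = 0.0604), and it was also not called when only the arrays of the groups compared entered the fit (4.10, adjusted p = 0.0873). The Perk-null response minus the wild-type response was -1.38 ± 0.85 (95% interval -3.18 to 0.42, adjusted p = 0.319). Against the wild-type arrays of the same run alone it was -0.45. With normexp and the wild-type arrays of both runs it was -0.27. A difference was thus not shown, though the interval around -1.38 holds differences of several fold.

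Gdf15 was at -3.29 and -4.52 on treated Perk-null arrays, against -5.27 and -4.13 on untreated ones, neither of which was well above background. The groups overlapped. Taking the dimmest signal counted as above background as a floor, the treated mean was 1.25-fold higher than the untreated one. That is not a firm lower bound, since with normexp the fitted change was -0.0038. The response was 0.79 ± 0.65 (adjusted p = 0.752). It was -1.87 ± 0.80 relative to the wild-type response (95% interval -3.57 to -0.16, adjusted p = 0.143), which missed the threshold. Against wild-type arrays of the same run alone the difference was -2.89 and passed it (adjusted p = 0.0356). With the wild-type arrays of both runs it also passed under normexp (-1.61) and with array weights (-2.80).

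Adm2 was at -1.36 and -1.87 on treated Perk-null arrays, against -2.94 and -2.67 on untreated ones. Treated arrays lay above untreated ones, but by less than in wild-type cells. The response was 1.19 ± 0.34 (adjusted p = 0.0855), and quantile normalization put it past the threshold (1.30, adjusted p = 0.0279). The Perk-null response minus the wild-type response was -2.49 ± 0.41 (adjusted p = 1.28e-03). Stc2 was at -1.66 and -1.44 on treated Perk-null arrays, against -2.21 and -1.83 on untreated ones. The response was 0.47 ± 0.29 (adjusted p = 0.593), and the difference from wild type was -2.86 ± 0.36 (adjusted p = 1.27e-04). In the test of this difference 6.64% of genes were called lower.

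**Figure D3:**
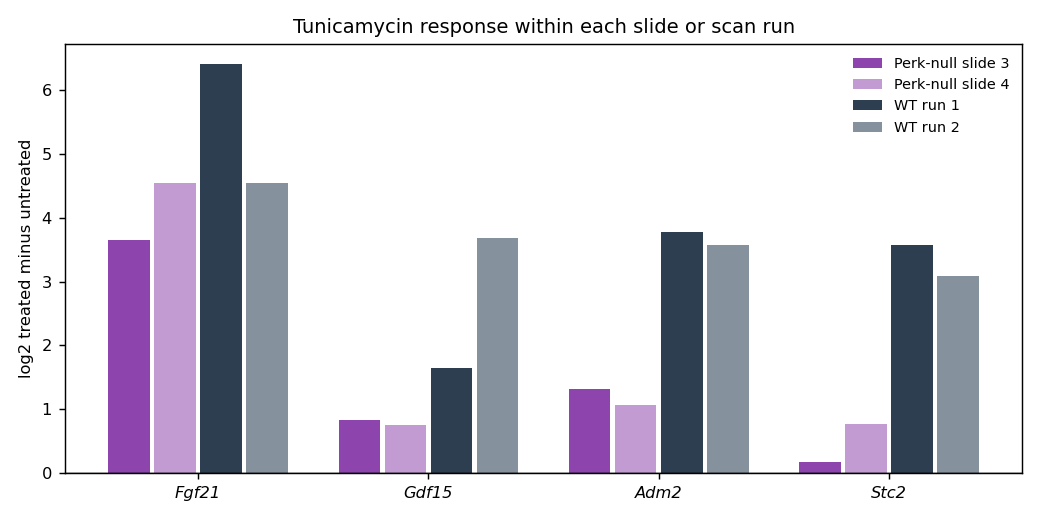
Treated minus untreated level (vertical axis, log2) within each of the 2 slides that held Perk-null arrays and within each of the 2 scan runs that held wild-type arrays. A slide value sets 1 array against 1 array, and a run value sets the mean of 2 against the mean of 2. The Fgf21 bars lie between 3.66 and 6.41 in all 4, while those of Stc2 are 0.17 and 0.77 in Perk-null cells and 3.57 and 3.08 in wild-type cells.

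In Atf4-null cells none of the 4 hormone genes was called higher with tunicamycin, and Stc2 fell. There 12.0% of genes were called higher and 17.1% lower. With the array median as the scale the median of all tested genes moved by -0.62 in this comparison, and 7.51% of the called genes were higher, against 41.2% with the 75th percentile. Fgf21 was at -5.56 and -5.55 on treated Atf4-null arrays, against -7.08 and -6.86 on untreated ones, and none of these was well above background, so the fitted change of 1.42 ± 0.69 (adjusted p = 0.138) compares signals not well above background, and it passed the threshold with normexp (0.80). Levels in treated cells of run 1 can be set side by side. With the floor defined as above, Fgf21 was 15.1-fold lower in treated Atf4-null than in treated wild-type cells, Gdf15 17.2-fold lower and Adm2 55.9-fold lower. The arrays did not overlap. These are not firm lower bounds, since they hold for 1 scaling and normexp compresses dim signals. They come from 2 arrays a group and were not tested on their own.

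Gdf15 was at -3.64 and -5.40 on treated Atf4-null arrays, not well above background, against -3.99 and -2.66 on untreated ones, which were above it. The arrays overlapped, and with the floor defined as above the untreated mean was 1.56-fold higher than the treated one. That is not a firm lower bound, since the sign turned with normexp. The fitted change of -1.20 ± 0.65 was not called (adjusted p = 0.182). Quantile normalization (-1.82) and scaling by the array median (-1.82) put it past the threshold, as did leaving out the arrays of the dimmest scan day, treated replicates 1 of Atf4-null and wild-type cells (-2.08), while with normexp it was 0.14 and not called. Adm2 was at -5.04 and -4.94 on treated Atf4-null arrays, against -4.66 and -5.56 on untreated ones, with 1 of these 4 arrays above background. The groups overlapped (0.12 ± 0.34, adjusted p = 0.824), and the sign of this small value turned with scaling, being -0.82 after quantile normalization and -0.51 with the array median.

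Stc2 was at -3.05 and -1.89 on treated Atf4-null arrays, against -1.25 and -0.60 on untreated ones, all well above background. It moved opposite to its direction in wild-type cells, and its groups did not overlap. The response was -1.55 ± 0.29 (0.343-fold, adjusted p = 1.22e-03). It rested in size on treated Atf4-null replicate 1, the array with the lowest 75th percentile, without which it was -0.97 and still called (adjusted p = 0.0173), and it was not called when only Atf4-null arrays entered the fit (adjusted p = 0.248). In run 1 the treated arrays shared 1 slide and the untreated arrays a second one, so slide and treatment cannot be told apart there.

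The Atf4-null response was lower than the wild-type response for all 4 genes, where 19.6% of genes were called lower. The difference was -4.07 ± 0.85 for Fgf21 (adjusted p = 2.67e-03), -3.86 ± 0.80 for Gdf15 (2.60e-03), -3.56 ± 0.41 for Adm2 (4.46e-05) and -4.87 ± 0.36 for Stc2 (6.78e-07). The wild-type response in these differences pools both runs. Within run 1, which held the Atf4-null arrays, it was 6.41 for Fgf21, 1.64 for Gdf15, 3.78 for Adm2 and 3.57 for Stc2. Pooled, these were 5.48, 2.66, 3.67 and 3.33, so the pooled fit makes the Gdf15 difference larger. The Fgf21 difference rests on an Atf4-null response between signals not well above background, and it was not called with array weights (-3.29, adjusted p = 0.205). With normexp the differences of Fgf21, Gdf15 and Adm2 were -2.0, -1.47 and -2.32, past the threshold.

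In eIF2a A/A cells, which cannot phosphorylate eIF2a at the replaced serine, none of the 4 hormone genes was called with tunicamycin, where 3.08% of genes were called higher and 1.82% lower. Fgf21 was at -6.41 and -6.50 on treated eIF2a A/A arrays, against -6.59 and -3.80 on untreated ones. Of these 4 arrays, untreated replicate 2 alone was well above background for Fgf21, at 21.3 intensity units. The response was -1.26 ± 0.69 (adjusted p = 0.374), and without that array it was 0.13. Gdf15 was at -0.87 and -1.04 on treated eIF2a A/A arrays, against -0.71 and -0.55 on untreated ones. All 4 arrays were well above background and lay near the treated wild-type mean of -0.10, which comes from other scan runs, and the response was -0.32 ± 0.65 (adjusted p = 0.892).

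Adm2 was at -4.21 and -3.51 on treated eIF2a A/A arrays, against -3.86 and -3.18 on untreated ones. These overlapped, with a response of -0.34 ± 0.34 (adjusted p = 0.686). Stc2 was at -1.78 and -1.90 on treated eIF2a A/A arrays, against -2.53 and -2.31 on untreated ones. Its groups did not overlap, and the response of 0.58 ± 0.29 was not called (adjusted p = 0.324), although it was with array weights and when only eIF2a A/A arrays entered the fit.

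The eIF2a A/A response was lower than the wild-type response for all 4 genes, where 10.1% of genes were called lower. The difference was -6.74 ± 0.85 for Fgf21 (adjusted p = 9.09e-05), -2.98 ± 0.80 for Gdf15 (0.0173), -4.02 ± 0.41 for Adm2 (2.36e-05) and -2.75 ± 0.36 for Stc2 (1.24e-04). The size of the Fgf21 difference rests on eIF2a A/A signals of which 1 of 4 was above background. Without that array, untreated replicate 2, the difference was -5.35, and with normexp it was -2.96, both past the threshold. The Gdf15 difference was less firm. Leaving out any of the 4 eIF2a A/A arrays ended the call (adjusted p from 0.0538 to 0.0712), as did setting eIF2a A/A against the wild-type arrays of run 1 alone (-1.96, adjusted p = 0.0808), where untreated wild-type Gdf15 was high.

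**Figure D4:**
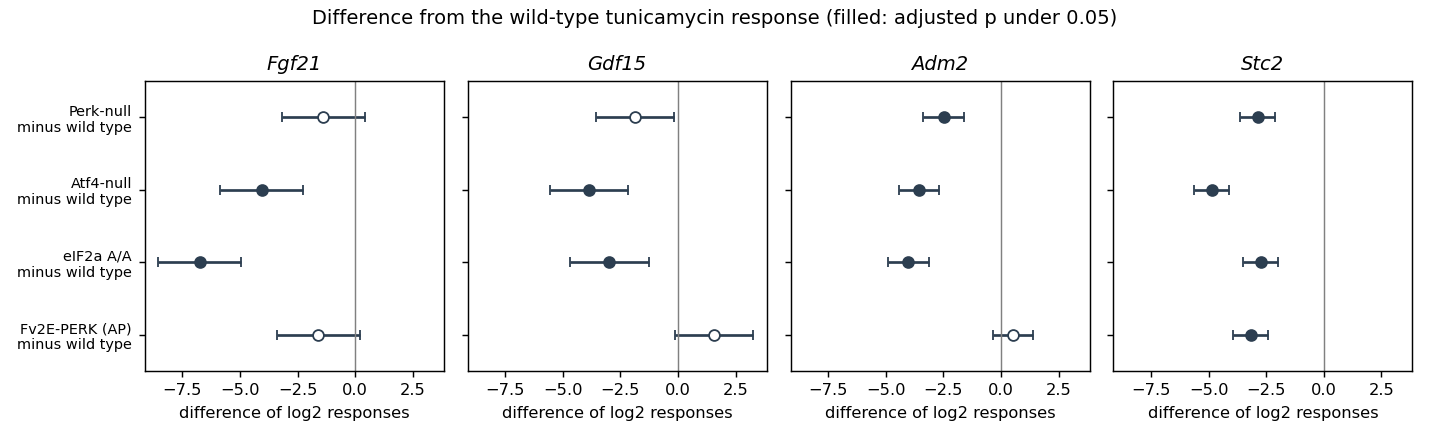
Difference between each genotype's log2 response and the wild-type response to tunicamycin (horizontal axis), with 95% intervals from limma's fit. Filled points passed an adjusted p under 0.05. Atf4-null and eIF2a A/A points are filled for all 4 genes and lie between -6.74 and -2.75, Perk-null points are filled for Adm2 and Stc2, and Fv2E-PERK points for Stc2.

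Fv2E-PERK cells given AP, in which the kinase domain can be switched on without tunicamycin, showed higher Fgf21, Gdf15 and Adm2 than untreated Fv2E-PERK cells, where 2.79% of genes were called higher. Fgf21 was at 1.88 and 1.87 with AP, against -2.10 and -1.90 untreated. All were well above background, and the response was 3.87 ± 0.69 (14.7-fold, adjusted p = 4.93e-03). Without AP replicate 2 (3.88, adjusted p = 0.0543) or untreated replicate 1 (3.77, adjusted p = 0.0514) it kept its size and missed the threshold. Gdf15 was at -0.03 and -0.17 with AP, against -4.23 and -4.40 untreated, of which the second was not well above background. The response was 4.21 ± 0.65 (18.5-fold, adjusted p = 1.79e-03), and 2.31 with normexp.

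Adm2 was at -0.65 and -0.52 with AP, against -4.88 and -4.70 untreated, neither of which was well above background. With the floor defined as above, Adm2 was 16.1-fold higher with AP (4.01 in log2), and the fitted change was 4.20 ± 0.34 (adjusted p = 6.02e-06). That is not a firm lower bound, since with normexp the response was 2.08. Stc2 was at -6.72 and -6.54 with AP, against -6.82 and -6.73 untreated. None of these 4 arrays was well above background, so Stc2 was not detected in Fv2E-PERK cells in either state, and the fitted change of 0.15 ± 0.29 (adjusted p = 0.891) compares signals not well above background. The Eif2ak3 probe lay between -0.77 and -0.40 on Fv2E-PERK arrays, which overlaps the Perk-null range from another scan run, and its part in this was not tested.

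The AP response minus the wild-type tunicamycin response was -1.61 ± 0.85 for Fgf21 (95% interval -3.41 to 0.20, adjusted p = 0.283), 1.55 ± 0.80 for Gdf15 (-0.15 to 3.26, adjusted p = 0.272) and 0.53 ± 0.41 for Adm2 (-0.35 to 1.41, adjusted p = 0.497), none of them called. With normexp the direction of the Fgf21 (0.47) and Adm2 (-0.83) differences turned. For Stc2 the fitted difference was -3.18 ± 0.36 (adjusted p = 7.53e-05), where 3.68% of genes were called lower, but its AP response lies between signals not well above background, so this restates the rise in wild-type cells. Set against the wild-type arrays of run 1 alone, the Gdf15 difference was 2.57 and called (adjusted p = 0.0350). The agents differ between these cells, and the comparison shares its wild-type arrays with those above.

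The mutants also differed from each other in a few places. For Stc2 the Atf4-null response was below the Perk-null response (Atf4-null minus Perk-null -2.01 ± 0.41, adjusted p = 5.53e-03, 9.75% of genes called lower) and below the eIF2a A/A response (Atf4-null minus eIF2a A/A -2.13 ± 0.41, adjusted p = 4.55e-03, 7.77% called lower). Both calls were lost when only the arrays compared entered the fit, and with normexp the values were -0.89 and -0.98. For Fgf21 the fitted Perk-null response exceeded the fitted eIF2a A/A response by 5.36 ± 0.98 (adjusted p = 0.0374), where 0.173% of genes were called higher. With 1 of 4 eIF2a A/A arrays above background, the size of this difference is not measured. This call was lost in 12 of 23 alternatives, 7 of which each left out 1 array. It kept its direction in all 23, from 2.69 to 6.76, and was 3.97 without the untreated eIF2a A/A array that was above background (adjusted p = 0.127). The Fgf21 difference between Atf4-null and Perk-null responses was -2.69 ± 0.98 and was not called (adjusted p = 0.0759), and it was called after quantile normalization (-4.07), with the array median (-3.32) and with normexp (-1.73).

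Before any treatment, Stc2 was lower in Perk-null than in wild-type cells. Untreated Perk-null arrays were at -2.21 and -1.83, against -0.28 and -0.32 in untreated wild-type cells of the same run, a difference of means of -1.72. The fit, which uses all wild-type arrays with a term for the run, gave -1.60 ± 0.27 (0.330-fold, adjusted p = 2.49e-04, 24.8% of genes called lower). Adm2 was lower in untreated Atf4-null cells, at -4.66 and -5.56, against -1.50 and -2.38 in untreated wild-type cells of the same run, a difference of means of -3.17, with 1 of 2 Atf4-null arrays above background. The fit gave -3.22 ± 0.32 (0.107-fold, adjusted p = 3.36e-06, 21.1% of genes called in either direction). With normexp these differences were -1.07 and -1.14. The other 6 untreated differences of the 4 genes were not called, with values from -1.32 to 0.85, although Adm2 in Perk-null cells was called after quantile normalization (-0.89) and with the array median (-1.13). Untreated eIF2a A/A and Fv2E-PERK cells share no scan run with wild-type cells and were not tested against them.

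Ordered by group mean over all 10 groups, Fgf21 was highest in Fv2E-PERK cells with AP (1.87 ± 0.01, SD, n = 2), then in treated Perk-null (0.55 ± 0.03, n = 2) and treated wild-type cells (0.28 ± 0.63, n = 4), whose arrays overlapped. Untreated Fv2E-PERK cells came next (-2.0 ± 0.14, n = 2), followed by untreated Perk-null cells (-3.55 ± 0.61, n = 2), all of these well above background on every array. Untreated eIF2a A/A and untreated wild-type cells, each with some arrays above background, came next, and treated Atf4-null, treated eIF2a A/A and untreated Atf4-null cells, with none, came last and have no measured order. Of its 9 pairs of neighbours in this order, 4 overlapped. Gdf15 was highest in treated wild-type cells (-0.10 ± 0.30) and Fv2E-PERK cells with AP (-0.10 ± 0.10), which overlapped, then in untreated (-0.63 ± 0.11) and treated eIF2a A/A cells (-0.96 ± 0.12), and 6 of its 9 neighbouring pairs overlapped. Adm2 was highest in treated wild-type cells (1.66 ± 0.25), then with AP (-0.58 ± 0.09) and in treated Perk-null cells (-1.62 ± 0.36), with 3 overlapping pairs. Stc2 was highest in treated (2.99 ± 0.26) and then untreated wild-type cells (-0.33 ± 0.07), which stood above all arrays of the other genotypes, with 2 overlapping pairs and both Fv2E-PERK groups at the bottom. The order runs across scan runs and array design versions, and genotypes of different runs share no array that would tie them. Overlaps of neighbours were not counted over all tested genes, so these counts describe the order and nothing particular to the 4 genes.

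Over the 24 arrays the level of Adm2 followed those of Fgf21 (Pearson r = 0.71), Gdf15 (r = 0.61) and Stc2 (r = 0.55), whereas Fgf21 and Stc2 did not follow each other (r = -0.02). The gene most like Fgf21 by Pearson r was Fut1 (r = 0.955), a fucosyltransferase gene, which rose by 3.39 ± 0.32 in wild-type cells, 3.45 ± 0.46 in Perk-null cells and 3.48 ± 0.46 with AP, and was not called in Atf4-null (0.72) or eIF2a A/A cells (0.20). Ankrd11, Gpt2, Cebpg and Hax1 came next, with r from 0.889 to 0.909. For Gdf15 the closest were Osgin2, Atxn2l, Mia2, Raph1 and Nomo1 (r from 0.845 to 0.857). For Adm2 they were Arhgef2, Slc7a11, Trib3, Pck2 and B4galnt2 (r from 0.925 to 0.943), and for Stc2 Cast, Pde3b, Sgcd, Shtn1 and Mageh1 (r from 0.898 to 0.930). These correlations are descriptions over arrays that share runs, groups and depth. They include signals not well above background, such as Stc2 on all Fv2E-PERK arrays and Fgf21 on all Atf4-null arrays.

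Genes around the hormones were followed as 6 lists, also chosen with earlier results of these data known. Of 24 upstream regulators, 14 were higher and 2 lower in treated wild-type cells, beside 21.2% higher and 16.3% lower over all tested genes, with a median change of 0.82 against 0.07 over all tested genes. Ddit3, which encodes the transcription factor CHOP, rose by 4.67 ± 0.14 in wild-type cells and was also called in the other 4 genotypes, with 3.47 ± 0.20 in Atf4-null, 2.32 ± 0.20 in Fv2E-PERK, 1.27 ± 0.20 in Perk-null and 1.13 ± 0.20 in eIF2a A/A cells. Trib3, a pseudokinase gene, rose by 3.56 ± 0.20 in wild-type cells, 4.0 ± 0.29 with AP, 2.24 ± 0.29 in Perk-null and 1.74 ± 0.29 in Atf4-null cells, and was at -0.14 ± 0.29 in eIF2a A/A cells. Atf3, a transcription factor gene, rose by 3.45 ± 0.29 in wild-type, 2.25 ± 0.41 with AP and 1.71 ± 0.41 in Perk-null cells.

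Of 24 intracellular targets of the integrated stress response, 23 were higher in treated wild-type cells (median 2.09), 16 with AP (median 1.04), 10 in Perk-null (0.92), 3 in Atf4-null (-0.24, with 5 lower, and 1 higher and 11 lower with the array median) and 2 in eIF2a A/A cells (0.11). The same medians over all tested genes lay between -0.04 and 0.08. Over all tested genes, 21.2% were called higher in wild-type cells, 2.79% with AP, 1.87% in Perk-null and 3.08% in eIF2a A/A cells. In Atf4-null cells 12.0% were called higher and 17.1% lower, and the 3 and 5 called there lay near these shares. With the array median as the scale, 4843 of 14459 tested genes were called lower in Atf4-null cells. Slc7a11, a cystine transporter gene, rose by 4.65 ± 0.40 in wild-type, 2.73 ± 0.57 with AP and 2.66 ± 0.57 in Perk-null cells. Untreated, it was above background on 1 of 4 wild-type arrays and on no Perk-null or Fv2E-PERK array, so these sizes rest on signals at background. Slc6a9, a glycine transporter gene, rose by 4.16 ± 0.23 in wild-type, 2.90 ± 0.32 in Perk-null, 2.15 ± 0.32 with AP and 1.65 ± 0.32 in eIF2a A/A cells. Cth, for an enzyme that makes cysteine from cystathionine, rose by 4.01 ± 0.23 in wild-type cells and 2.13 ± 0.32 with AP, was at 0.40 ± 0.32 in Perk-null cells and fell by 1.47 in Atf4-null cells.

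**Figure D5:**
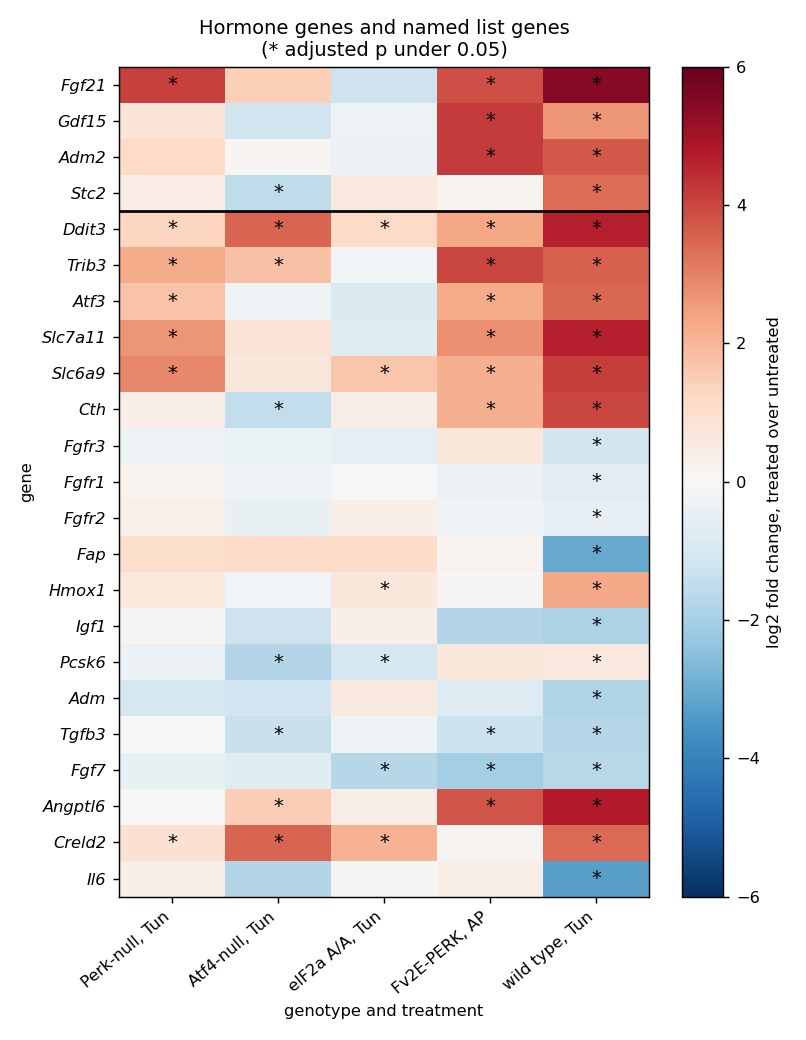
Log2 fold change of treated over untreated cells (colour) for the 4 hormone genes, above the line, and the named genes of the 6 lists, below it, in 5 genotypes. Asterisks mark an adjusted p under 0.05. The row of Fgf21 carries asterisks in Perk-null, Fv2E-PERK and wild-type cells, and that of Ddit3 in all 5.

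Genes listed as receptors and co-receptors were detected unevenly. The list also held Igf1r, Kl and Calcr, which are not among the receptors named above for the 4 hormones. Gfral, Calcrl, Calcr and Kl were not well above background on any array, Klb, for beta-Klotho, was above it on 13 of 24 and Ret on 7, while Fgfr1, Fgfr2, Fgfr3, Ramp1, Ramp2, Ramp3 and Igf1r were above it on all 24. Of the 14 genes 10 were tested. In treated wild-type cells Fgfr3 (-1.09 ± 0.19), Fgfr1 (-0.66 ± 0.17) and Fgfr2 (-0.49 ± 0.14) were lower and none was higher, and with the array median as the scale Fgfr2 was at -0.59 and not called. The list's median was -0.50. In the other 4 genotypes 1 receptor gene was called higher in Atf4-null cells and 1 with AP, and none was called lower. With the array median as the scale, 5 were called lower in Atf4-null cells, as were 4843 of 14459 tested genes. Over all tested genes, 21.2% were called higher and 16.3% lower in wild-type cells. In Atf4-null cells 12.0% were called higher, and with AP 2.79%.

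Of 14 tested proteases and binding partners, 3 were higher and 3 lower in treated wild-type cells, near the shares over all tested genes (21.2% higher and 16.3% lower). Hmox1, for heme oxygenase, rose by 2.25 ± 0.13. Fap, for a protease that cleaves human FGF21, was lower (-3.01 ± 0.39), with 1 of 4 treated and 4 of 4 untreated wild-type arrays above background, and was at -0.74 with normexp, still called. Igf1 was lower (-1.91 ± 0.48) and was not called with normexp. Pcsk6, for a proprotein convertase, was higher in wild-type cells (0.57 ± 0.17) and lower in Atf4-null (-1.76 ± 0.23) and eIF2a A/A cells (-1.08 ± 0.23).

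Of 14 tested paralogous ligands, 5 were lower and 1 higher in treated wild-type cells (median -0.62), beside 16.3% lower and 21.2% higher over all tested genes. Adm, for adrenomedullin, the relative of Adm2, was lower (-1.79 ± 0.40), as were Tgfb3 (-1.70 ± 0.18) and Fgf7 (-1.68 ± 0.23). Fgf7 was also lower in eIF2a A/A cells (-1.69 ± 0.33) and with AP (-2.05 ± 0.33), where 1.28% of genes were called lower. Stc1, the relative of Stc2, was above background on 3 of 24 arrays and was not tested. Of 13 other secreted factors tested, 6 were higher and 5 lower in treated wild-type cells, beside 21.2% higher and 16.3% lower over all tested genes, and 5 were higher and 3 lower with normexp. Angptl6, a secreted angiopoietin-like factor, rose by 4.74 ± 0.25 in wild-type cells, 3.76 ± 0.35 with AP and 1.49 ± 0.35 in Atf4-null cells, and was at 0.01 ± 0.35 in Perk-null cells. Creld2, an ER stress-induced gene, rose by 3.41 ± 0.10 in wild-type, 3.49 ± 0.14 in Atf4-null, 2.07 ± 0.14 in eIF2a A/A and 0.89 ± 0.14 in Perk-null cells, and was at 0.18 ± 0.14 with AP. Il6 was lower in treated wild-type cells (-3.26 ± 1.02), whose untreated arrays ran from -5.40 to 4.17 with 2 of 4 above background.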

How the data were processed

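RNA from 24 samples was measured on 1-colour Agilent arrays, 1 sample an array. Agilent Feature Extraction 10.7.1.1 gave the spot intensity, per the file headers. The deposited scanner files hold the processed signal, a linear intensity after background subtraction, and flags of 0 or 1 for spots well above background, saturated (none) or outlying, per the file headers. The authors' deposited table holds log2 values, and 99.3% of them matched the scanner values within 0.001 once a term per probe and array was removed. They were thus centred per probe, against a baseline that stayed unknown, with column medians from -0.32 to 0.49.

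Control spots and outlying spots were left out (a probe with outlying spots alone kept them) and spots of a probe averaged. The values analysed were log2 of the processed signal, less each array's own 75th percentile of it, over 55681 probes. Of these, 26631 matched 1 gene through their accession in a RefSeq table (GRCm38.p6, used for names only) and 29050 none. Each gene took its brightest probe, and 14459 genes, each well above background on all arrays of some group, were tested, with 5711 put aside.

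The model was fitted with lmFit and eBayes of limma 3.58.1 (in R 4.3.3, with statmod 1.5.0) to all 24 arrays with 10 group means and a term for scan run 2 (13 residual and 2.23 prior degrees of freedom), with Benjamini-Hochberg adjustment within each of 14 comparisons. The script was tested on simulated data. An adjusted p in the text is limma's. The members and lists were chosen with earlier results of these data known. Named genes are the 4 members and, per list, the 3 called genes with the largest wild-type response and the gene called in at least 3 of 5 responses with the largest mean response. Genes named as most like a member are the 5 with the highest r. Alternatives changed background correction, scaling, filter, probe rule, run term, wild-type arrays, slide or replicate block, weights and prior, or left out each array. Chosen after seeing the data were the test between wild-type runs, the scan day and the slide within run 2 as fixed blocks, crossed replicate numbers in Perk-null cells, and leaving out the dimmest scan day. Normexp used the median signal of a spot, since the files held no mean signal. No 2 arrays were duplicates: the highest r between any pair was 0.997, with at most 1 identical value.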

Additional observations from a re-analysis of the deposited data

Results flagged for a closer look

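In treated wild-type cells Fgf21 on replicate 1 stood at -0.66, apart from the other 3 arrays of its group, and its gap to the nearest of them was 0.895 of the group's range. Chance alone sets apart about 1 in 20 such groups, and 8 groups of 4 arrays were examined.

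Of 28 differences between the responses of genotypes, 14 passed the threshold in limma's fit (adjusted p under 0.05). Over all tested genes, the shares called in the same directions ran from 0.173% (Perk-null minus eIF2a A/A, higher) to 19.6% (Atf4-null minus wild type, lower). The differences share arrays, so they are not separate results. Relative to the wild-type response, the Perk-null response was lower for Adm2 (-2.49) and Stc2 (-2.86). The Atf4-null response was lower for Fgf21 (-4.07), Gdf15 (-3.86), Adm2 (-3.56) and Stc2 (-4.87). The eIF2a A/A response was lower for Fgf21 (-6.74), Gdf15 (-2.98), Adm2 (-4.02) and Stc2 (-2.75). The AP response of Fv2E-PERK cells was lower than the wild-type tunicamycin response for Stc2 (-3.18), which was not well above background in those cells. Between mutants, Stc2 responded lower in Atf4-null than in Perk-null cells (-2.01) and lower in Atf4-null than in eIF2a A/A cells (-2.13), and Fgf21 responded higher in Perk-null than in eIF2a A/A cells (5.36), where 1 of 4 arrays was above background.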

How the results depend on the processing

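Of 488 values of responses and differences from wild type under alternatives other than leaving out an array, 463 kept their direction and their side of the threshold, as did 229 of 240 with 1 array left out. For the other comparisons these counts were 330 of 356 and 180 of 192. With normexp, which compresses dim signals, direction turned for the responses of Gdf15 in Perk-null (-0.0038) and Atf4-null cells (0.14), Adm2 in eIF2a A/A cells (0.035) and Stc2 with AP (-0.11), for the AP minus wild-type responses of Fgf21 (0.47) and Adm2 (-0.83), for the Atf4-null minus Perk-null responses of Gdf15 (0.14) and Adm2 (0.015), and for Gdf15 in Atf4-null minus eIF2a A/A (0.36). Normexp put past the threshold Fgf21 (0.80) and Adm2 (0.59) in Atf4-null cells and the Perk-null minus wild-type response of Gdf15 (-1.61). Quantile normalization put past it Adm2 in Perk-null (1.30) and Gdf15 in Atf4-null cells (-1.82), and turned Adm2 in Atf4-null cells (-0.82) and in Atf4-null minus eIF2a A/A (-0.79). With the array median Gdf15 in Atf4-null cells passed (-1.82), Adm2 in Atf4-null cells (-0.51) and in Atf4-null minus eIF2a A/A (-0.49) and Gdf15 in eIF2a A/A cells (0.007) turned, and Gdf15 in eIF2a A/A minus wild type lost its call (-2.56). That scale moved the median of all genes by -0.62 in Atf4-null and 0.33 in eIF2a A/A cells. With only the groups compared, Fgf21 in Perk-null (4.10) and Stc2 in Atf4-null cells (-1.55) lost their calls and Stc2 in eIF2a A/A cells (0.58) gained one. Array weights did so for Stc2 in eIF2a A/A (0.58) and for Gdf15 in Perk-null minus wild type (-2.80), and ended the call of Fgf21 in Atf4-null minus wild type (-3.29). Gdf15 in Perk-null minus wild type also passed with run 2 wild-type arrays (-2.89), and in Atf4-null cells without the dimmest scan day (-2.08). Gdf15 in eIF2a A/A minus wild type lost its call without the run term (-2.98) and with run 1 wild-type arrays (-1.96).

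With 1 array left out, values ran from 3.67 to 4.53 for Fgf21 in Perk-null cells, -0.33 to 0.57 for Adm2 in Atf4-null cells, -2.65 to 0.13 for Fgf21 and -0.69 to 0.0064 for Adm2 in eIF2a A/A cells, 3.77 to 3.98 for Fgf21 with AP, -3.34 to -2.69 for Gdf15 in eIF2a A/A minus wild type, -0.30 to 0.076 for Stc2 in Perk-null minus eIF2a A/A, and -1.76 to 0.0035 for Gdf15 in Atf4-null minus eIF2a A/A. Arrays with the same replicate number did not deviate together (r of -0.47 in Perk-null cells and -0.007 to 0.067 in the other genotypes). A pairing by number was thus not seen, though it is not excluded. In Perk-null cells the same numbers lay on different slides, and arrays of the same slide deviated together. The main fit held no term for the slide. With the replicate number as a block, Gdf15 in eIF2a A/A minus wild type (-2.98, adjusted p = 0.0869) and Fgf21 in Perk-null minus eIF2a A/A (5.36, adjusted p = 0.105) lost their calls. With crossed numbers in Perk-null cells 1 of the 4 hormone genes was called, the same number as without a block. The causes of these changes were not tested.

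Counts over all genes varied more. Genes called higher numbered 3069 in wild-type cells (1225 to 4415 over the alternatives), 271 in Perk-null (0 to 520), 1730 in Atf4-null (0 to 2967), 445 in eIF2a A/A (125 to 2827) and 403 in Fv2E-PERK cells (103 to 3862). Genes with a lower response than wild type numbered 960 in Perk-null (167 to 1488), 2829 in Atf4-null (1020 to 3906) and 1462 in eIF2a A/A cells (273 to 3672). Signals near background, as of Fgf21 in Atf4-null and eIF2a A/A cells and Stc2 in Fv2E-PERK cells, set a limit on what these arrays resolve.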
